A study of Mus musculus with 3 samples.

Results

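The genes described here encode the subunits of the proteasome, the barrel-shaped protease that degrades ubiquitin-tagged proteins. They were the protein-coding genes of the mm9 mouse annotation (GENCODE M1) whose symbol begins with Psma, Psmb, Psmc, Psmd or Psme followed by a digit, and the rule found 45 of 22254 protein-coding genes, on 16 chromosomes. For each gene, the Runx3 peaks and the regions carrying monomethylated lysine 4 of histone H3 (H3K4me1) that shared at least 1 bp with the gene and 5 kb on either side were counted. Psmb8, Psmb9 and Psmb10 were set apart. Psmc3ip fits the symbol rule, but its product acts in meiotic recombination and is not a proteasome subunit, so it formed a class of its own. Psme2b-ps is annotated as protein-coding although its name marks a pseudogene.

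The chromatin came from freshly isolated, resting natural killer cells (NKC) of the spleen of ICR mice. The series held 1 sample precipitated with a polyclonal antibody to the transcription factor Runx3, 1 with a monoclonal antibody to H3K4me1 and 1 control with non-immune rabbit serum (NIS), and the labels name no treatment or mutation. The labels name NKp46 as the sorting marker and speak of a first experiment, whereas the study's methods name DX5 and joined reads of repeat experiments, so it is not known which reads each list rests on. Without replicate lists, no value below has a spread between replicates, and no test was made.

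The 2 deposited lists held 15524 Runx3 peaks, of median width 825 bp, and 49902 H3K4me1 regions, of median width 1801 bp. They give positions only, so read depth and signal strength at a gene cannot be compared. All 7 NKC marker genes examined, among them Ncr1, Prf1 and Gzma, had both a Runx3 peak and H3K4me1, which covered 57.4 to 90.5% of their windows. Among the markers of other cells that the gate could hold, Ms4a1, Cd4, Cd8a, Csf1r and Lyz2 had 0 Runx3 peaks, Cd3e had 1 and Pax5 had 2, and H3K4me1 covered 0 to 14.2% of the windows of these 7 genes. Runx3 peaks and H3K4me1 regions were therefore present at Cd3e and Pax5 as well. H3K4me1 regions alone were present at Cd4 (cover 3.67%) and Csf1r (5.07%). The part of other cells in the results below was not tested.

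Proteasomes are built from a 20S core of alpha and beta rings, in which some of the beta subunits cut the protein chain, and from caps that select, unfold and feed the substrate. In lymphocytes and in cells exposed to interferon, the cutting subunits Psmb5, Psmb6 and Psmb7 can be replaced by Psmb8, Psmb9 and Psmb10, which gives the immunoproteasome and alters the peptides passed to MHC class I molecules. Runx3 belongs to the RUNX family of DNA-binding factors, which recognise a short consensus, and H3K4me1 marks enhancers and the edges of promoters in use.

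The sequences of the peaks at the immunoproteasome genes come first, because these genes and their constitutive counterparts differed in the number of listed peaks. Each line gives 30 bases of mm9, or fewer where the peak ended, around the RUNX consensus nearest to the midpoint of a peak. The consensus is in capitals and was searched on both strands, where the letters TGTGGT were one accepted form, the letters TGTGGC another, and the forms with a central C were the letters TGCGGT together with the letters TGCGGC. The Psmb8 lines are from chr17:34333689-34333718 (plus strand, 7 bp from the midpoint of the upstream peak), chr17:34335350-34335379 (plus strand, 19 bp from the midpoint of the start peak) and chr17:34341550-34341579 (minus strand, 112 bp from the midpoint of the peak at the start of Tap2). The Psmb9 line is from chr17:34324036-34324065 (minus strand, 227 bp from the midpoint) and the Psmb10 line from chr8:108461427-108461451 (minus strand, 395 bp from the midpoint).
Psmb8 upstream peak: ggtagaggctctTGCGGCtcctgcagactg
Psmb8 start peak: ttactggatctgTGCGGTgccgctcggggg
Psmb8 peak at Tap2: aaagaactcaccTGCGGCtgcggagcggca
Psmb9 start peak: cctgctcagaagTGTGGTgtccaggggtct
Psmb10 exon peak: attcggtTGTGGCggacaaaagctg

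The promoters of the counterparts Psmb5, Psmb6 and Psmb7 also held the consensus, although no Runx3 peak was listed within 5 kb of these genes. Each promoter window was the 300 bases from 250 before to 50 after the most upstream protein-coding start. The lines are from chr14:55236923-55236952 (minus strand), chr11:70338814-70338843 (minus strand), chr11:70338865-70338894 (plus strand) and chr2:38499703-38499732 (plus strand), in the order printed.
Psmb5 promoter: ggtatttagaggTGTGGTtgcccggagtaa
Psmb6 promoter, 60 bp from the start: ttagtccgcctcTGTGGCcttctgggagcg
Psmb6 promoter, 9 bp from the start: cgacggttgcttTGTGGCagagtagcagag
Psmb7 promoter: cagatctgtttcTGCGGTtaaactagaatc

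The Psmb8 window, by contrast, held no match, while those of Psmb9 and Psmb10 held 1 and 2. The Psmb8 and Psmb9 start peaks were centred near other starts of these genes than the ones used for the windows. The TGCGGT of the Psmb8 start peak, printed above, lay outside the Psmb8 window, and windows at other starts were not searched. At the starts used, a match thus did not separate the immunoproteasome genes, which had peaks, from their counterparts, which had none. Over all 45 genes, 24 promoters (53.3%) held the consensus, beside 45.4% of all protein-coding promoters, and among the 15 genes without a Runx3 peak it was in the promoters of 10.

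Runx3 peaks lay within 5 kb of 30 of the 45 proteasome genes (66.7%), beside 39.8% of all protein-coding genes. A total of 37 distinct peaks was counted, with 25 genes having 1 peak, 3 having 2 (Psma2, Psmc1 and Psmd13), 2 having 3 (Psmb8 and Psmd1) and 15 having 0. Longer windows held peaks more often over all genes, from 15.9% in the shortest of 5 equal bins of window length to 50.2% in the longest. The proteasome windows had a somewhat lower median, 21.5 kb beside 25.5 kb over all genes. In bins 2 and 3 by length, which held most of the proteasome genes, 10 of 18 and 11 of 13 had a peak, beside 36.2 and 46.0% of all genes in those bins. In the shortest bin 2 of 4 had a peak, in bin 4 it was 4 of 5, and in the longest 3 of 5.

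H3K4me1 regions lay within 5 kb of 43 of the 45 genes (95.6%), beside 67.7% of all protein-coding genes. Both exceptions were unusual members, the testis-specific alpha subunit gene Psma8 and Psme2b-ps. Of the 43 genes with H3K4me1, 30 (69.8%) had a Runx3 peak, beside 58.5% of all genes with H3K4me1. H3K4me1 covered a median of 19% of the proteasome windows, beside 7.98% of all windows, and the 5 largest covers were those of Psmb8 (88.2%), Psma7 (79.2%), Psme2 (57.7%), Psme1 (53.6%) and Psmb3 (47.5%). The proteasome genes with a Runx3 peak at a start had a median cover of 22.0%, beside 20.4% for all protein-coding genes with such a peak. The 15 proteasome genes without a peak had a median of 11.7%.

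**Figure D1:**
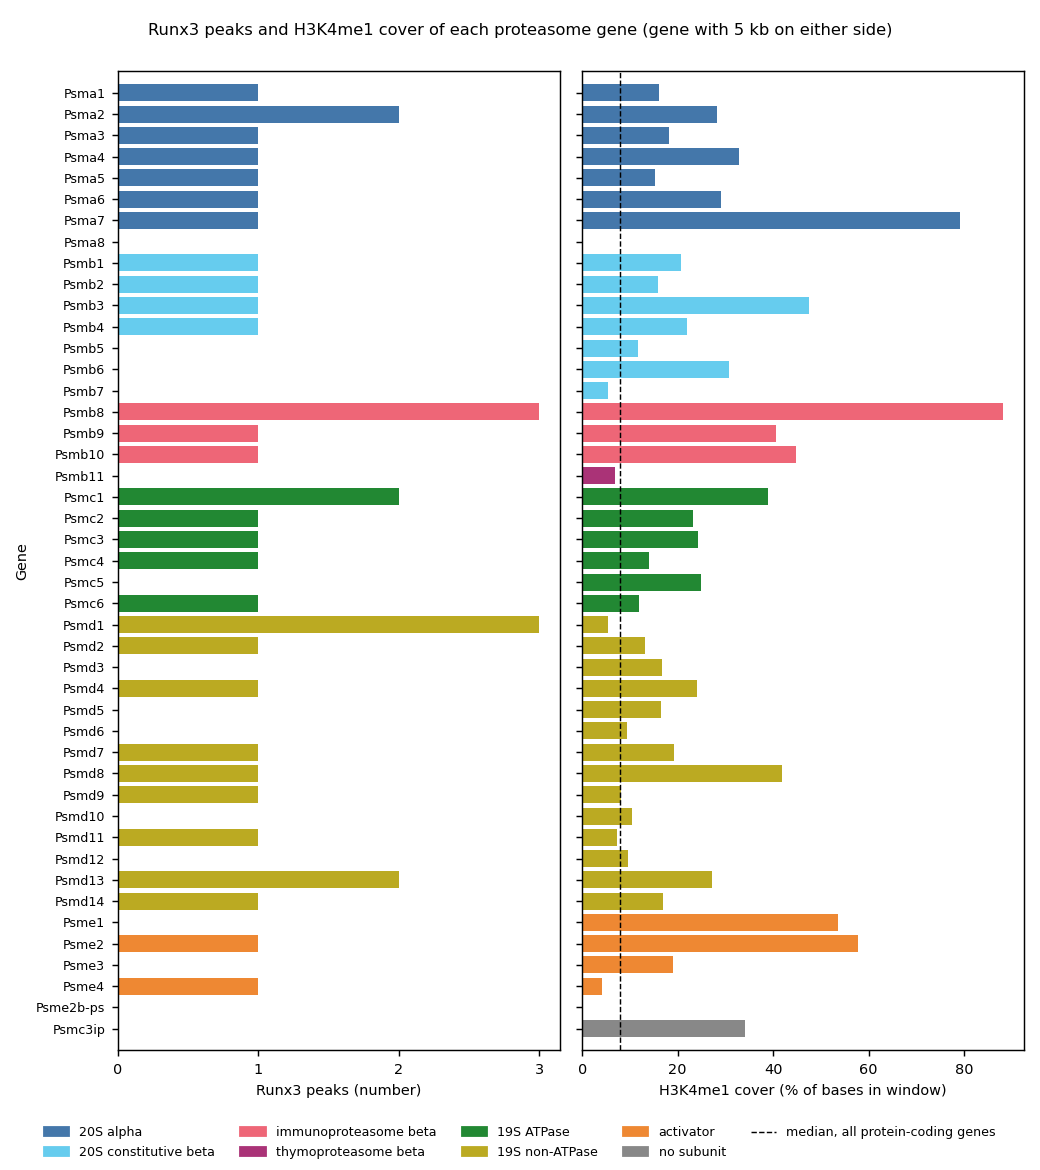
Runx3 peaks (left, number) and the share of bases inside H3K4me1 regions (right, %) for each of the 45 genes with 5 kb on either side, coloured by subunit class. The dashed line is the median over all protein-coding genes (7.98%). Psmb8 and Psmd1 have 3 peaks, and Psma8 and Psme2b-ps have neither peak nor region.

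A Runx3 peak with its midpoint under 1 kb from an annotated transcript start was found at 23 of the 45 genes (51.1%), beside 27.2% of all protein-coding genes. Of the 37 peaks, 24 lay under 1 kb from a start of the proteasome gene, 6 at 1 to 5 kb and 7 over 5 kb. For 9 of the 37, the nearest protein-coding start belonged to another gene, and for 5 genes (Psmb1, Psmc2, Psmc3, Psmc6 and Psmd13) this held for every peak. Counting a peak only for the gene with the nearest start left 25 proteasome genes with a peak (55.6%), beside 31.9% of all genes. For 12 of the 37 peaks, a start of another gene lay under 1 kb from the midpoint, whichever start was nearest. A listed peak near the start of a neighbour cannot be assigned to either gene from its position alone.

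With the edge of the window at 5 kb, the genes whose nearest peak lay farthest out among those called were Psmc3, 3.64 kb beyond the gene, and Psmb1, at 1.22 kb. Just outside it lay Psmd12 at 5.76 kb, Psmb6 at 6.26 kb, Psme1 at 9.22 kb, Psmc5 at 9.32 kb and Psme2b-ps at 9.81 kb.

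**Figure D2:**
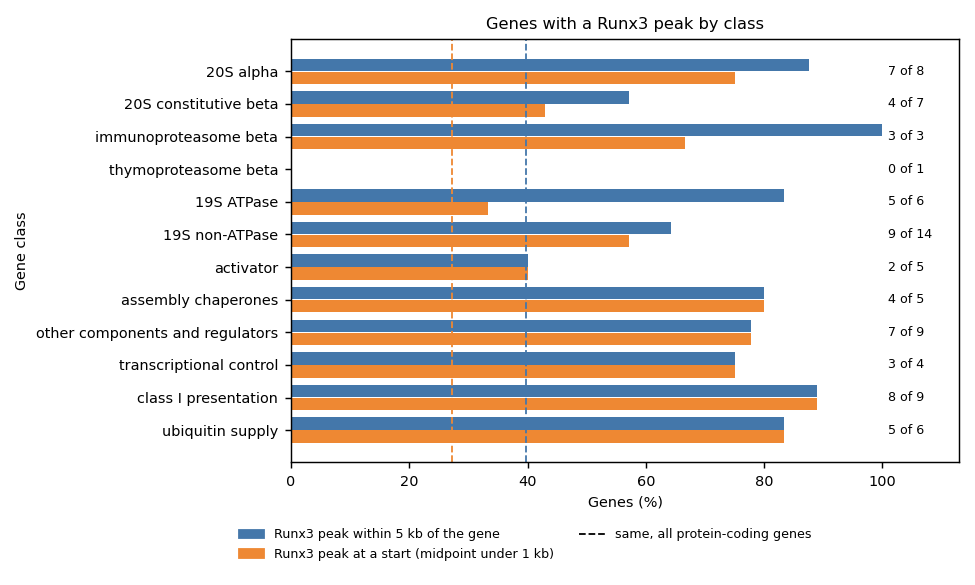
Share of genes (%) with a Runx3 peak within 5 kb (blue) and with a peak midpoint under 1 kb from a start (orange), by subunit class and for the other genes of the pathway. Numbers at the right count the genes with a peak within 5 kb, and the dashed lines give 39.8 and 27.2%, the shares over all protein-coding genes. The immunoproteasome class is at 3 of 3 and the activators at 2 of 5.

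All 3 immunoproteasome genes had Runx3 peaks and none of their constitutive counterparts did, beside 39.8% of all protein-coding genes. Psmb8, which replaces Psmb5 as the chymotrypsin-like subunit, had 3 peaks, whereas Psmb9, which replaces Psmb6, and Psmb10, which replaces Psmb7, had 1 each. The nearest Runx3 midpoint lay 42.2 kb from a start of Psmb5, 7.46 kb from Psmb6 and 107 kb from Psmb7. With windows of 10 kb, Psmb6 also had a peak, so that 1 of 3 counterparts was called. With only the peaks wider than the median, 1 immunoproteasome gene, Psmb9, was left with a peak, and the counterparts had 0. H3K4me1 covered 88.2% of the Psmb8 window, 40.6% of the Psmb9 window and 44.7% of the Psmb10 window, beside 11.7, 30.8 and 5.49% for Psmb5, Psmb6 and Psmb7. The lowest of the first group lay above the highest of the second.

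Psmb8 and Psmb9 lie on chromosome 17 among the antigen transporter genes Tap1 and Tap2, so their windows share peaks with these neighbours. The upstream Psmb8 peak (chr17:34333360-34334033, 674 bp) had its midpoint 970 bp before a Psmb8 start, over the end of Tap1. The start peak (chr17:34335077-34335690, 614 bp) was centred 171 bp before another Psmb8 start and covered coding and untranslated exon. The last Psmb8 peak (chr17:34341107-34341798, 692 bp) was centred 60 bp from a start of Tap2 and 5898 bp past the nearest Psmb8 start. The Psmb9 peak (chr17:34323788-34324767, 980 bp) was centred 6 bp from a Psmb9 start and lay under 1 kb from the start of Tap1, which is read in the opposite direction.

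Psmb10 differed from both in the place of its peak. The gene lies on chromosome 8, and its only peak (chr8:108460642-108461451, 810 bp) was centred 1246 bp downstream of the start, over coding exon, with its midpoint inside an H3K4me1 region of 2560 bp. The central 200 bases, chr8:108460946-108461145 on the minus strand, are shown because they held no RUNX consensus. The single match lay near the edge of the peak, as printed above, and the capitals are therefore absent from this line.
Psmb10 peak centre: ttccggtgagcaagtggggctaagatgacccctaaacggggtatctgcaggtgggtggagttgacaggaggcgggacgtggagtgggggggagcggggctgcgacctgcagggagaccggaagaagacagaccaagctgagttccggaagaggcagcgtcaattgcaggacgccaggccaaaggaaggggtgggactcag

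Among the alpha subunits, which form the outer rings and gate the entry to the core, 7 of 8 had a Runx3 peak. The exception was Psma8, and the share over all protein-coding genes was 39.8%. The classes hold few genes each, and differences between them were not tested. Psma1, Psma2, Psma3, Psma4, Psma5 and Psma6 had a peak at a start (75.0%, beside 27.2% of all protein-coding genes). The midpoints lay 17 to 207 bp from it. Those of the Psma2 and Psma4 start peaks also lay under 1 kb from starts of Mrpl32 and AY074887. The Psma3 peak was the widest of all, at 1309 bp, and held 6 RUNX matches. The Psma2 start peak, 921 bp, held none on either strand, and its second peak lay 9 bp from the start of the neighbour AW209491. Psma6 had its peak at an internal start, 65 bp away, and not at its most upstream one. Psma7 had a peak only 2105 bp from its nearest start, beyond the end of the gene, inside an H3K4me1 region of 9869 bp that ran over most of the gene.

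Of the 7 constitutive beta subunits, 4 had a peak (57.1%), beside 39.8% of all protein-coding genes. The non-catalytic subunits Psmb2, Psmb3 and Psmb4 had theirs 133, 22 and 9 bp from a start. The Psmb1 peak was centred 1685 bp before Psmb1 and 1 bp from a start of Tbp, which encodes the TATA-binding protein. The catalytic subunits Psmb5, Psmb6 and Psmb7 had 0 peaks, yet each had H3K4me1 within its window, and a start of Psmb6 and of Psmb7 lay inside a region. Psmb11, the beta subunit of the thymus, had 0 peaks and an H3K4me1 cover of 6.81%.

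The 6 ATPases of the 19S base, which unfold the substrate, had peaks at 5 genes (83.3%), beside 39.8% of all protein-coding genes. Only Psmc2 and Psmc4 had one at a start (33.3%), beside 27.2% of all protein-coding genes. The Psmc2 peak covered starts of both Psmc2 and the divergent gene Dnajc2, with its midpoint 20 and 12 bp from them. Psmc4 had a peak 24 bp from its start that held no RUNX consensus. Both peaks of Psmc1 lay away from its start, 2709 bp before it and 11651 bp into the gene, in an intron. The peaks of Psmc3 and Psmc6 were centred 85 bp from Slc39a13 and 91 bp from Styx, starts of the genes beyond their ends. Psmc5 had 0 peaks and a cover of 24.8%.

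Of the 14 non-ATPase genes, 9 had a peak (64.3%), beside 39.8% of all protein-coding genes. Psmd1 and Psmd2, the 2 large scaffold subunits of the base, had start peaks 66 and 216 bp from a start, and Psmd1 had further peaks 4900 bp before its start and at the start of Armc9, which lies within its span. The ubiquitin receptor Psmd4 had a peak 414 bp from a start. The lid subunits Psmd7, Psmd8, Psmd11 and Psmd13 had peaks 21, 25, 80 and 188 bp from a start, the last shared with the divergent gene Sirt3. Psmd9, a chaperone of base assembly, had the narrowest peak, at 559 bp. The lid subunits Psmd3, Psmd6 and Psmd12, and the base chaperones Psmd5 and Psmd10, had 0 peaks. Psmd10 was the only member on chromosome X.

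Psmd14, the deubiquitinase that removes the ubiquitin chain before degradation, had its single peak in an intron, 16626 bp from the nearest start, with the midpoint inside an H3K4me1 region of 3328 bp. It was the peak with the lowest GC content of the 37, at 40.3%. Its centre, chr2:61577297-61577496 on the plus strand, is shown as an example away from promoters, with the 2 RUNX matches in capitals (the second on the opposite strand).
Psmd14 intron peak centre: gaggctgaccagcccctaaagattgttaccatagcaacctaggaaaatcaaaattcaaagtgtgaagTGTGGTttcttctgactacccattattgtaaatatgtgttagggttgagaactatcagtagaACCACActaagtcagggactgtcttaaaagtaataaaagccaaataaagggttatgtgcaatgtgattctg

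The activators bind the ends of the core in place of the 19S cap. Psme2, the interferon-inducible beta subunit of the PA28 activator, had a peak of 1171 bp (chr14:56209582-56210752) centred 217 bp from a start and shared with Rnf31. Its partner Psme1, a close neighbour on chromosome 14, had 0 peaks within its window and an H3K4me1 cover of 53.6%, near that of Psme2. The windows of Psme1 and Psme2 overlap and share an H3K4me1 region of 3091 bp, so their covers are not independent. Psme4, which encodes the nuclear activator PA200, had a peak 111 bp from a start and the smallest cover among the genes with a peak, at 4.19%. Psme3, the gamma subunit of PA28, had 0 peaks and a cover of 19%. Psmc3ip had 0 peaks and a cover of 34.0%.

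Between its maxima on either side of the starts of the proteasome genes, H3K4me1 was lowest at the start. The start lay inside a region at 46.7% of the genes, compared with 71.1% at 500 bp upstream and 88.9% at 900 bp downstream. Over all protein-coding genes the corresponding shares were 34.4% at the start, 45.4% at 500 bp upstream and 48.5% at 800 bp downstream. Among the 6056 protein-coding genes with a Runx3 peak at a start, they were 51.5% at the start, 83.2% at 600 bp upstream and 87.4% at 1000 bp downstream. Downstream, the highest share at the proteasome genes was near that of the genes with a Runx3 peak at a start, and upstream it lay below it. The 15 proteasome genes without a Runx3 peak had the same form, with 33.3% at the start, 60.0% at 300 bp upstream and 80.0% at 400 bp downstream.

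**Figure D3:**
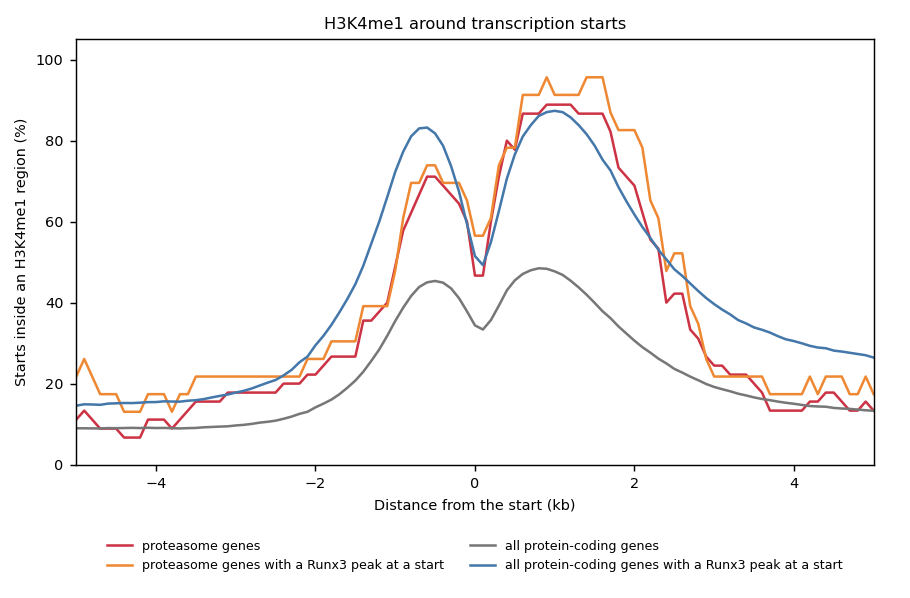
Share of starts (%) inside an H3K4me1 region at each distance (kb) from the most upstream protein-coding start, in the direction of transcription, for the 45 proteasome genes, the 23 with a Runx3 peak at a start, and the same over all protein-coding genes. Each curve dips near the start, where it stands at 46.7% for the proteasome genes and 34.4% for all genes.

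All 37 peaks touched an H3K4me1 region, beside 95.7% of all Runx3 peaks. The midpoint lay inside a region for 27 of them (73.0%), beside 83.6% of all peaks. The 13 peaks away from a start all had their midpoint inside, whereas 14 of the 24 at a start did (58.3%), beside 65.1% of all Runx3 peaks at protein-coding starts. The 10 with the midpoint outside were the start peaks of Psma1, Psma3, Psmb2, Psmb8, Psmb9, Psmd1, Psmd7, Psmd9, Psmd13 and Psme2. A peak bridging a gap between H3K4me1 regions, touching 2 of them, was found in 13 of the 24 start peaks (54.2%), beside 31.5% of all start peaks.

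**Figure D4:**
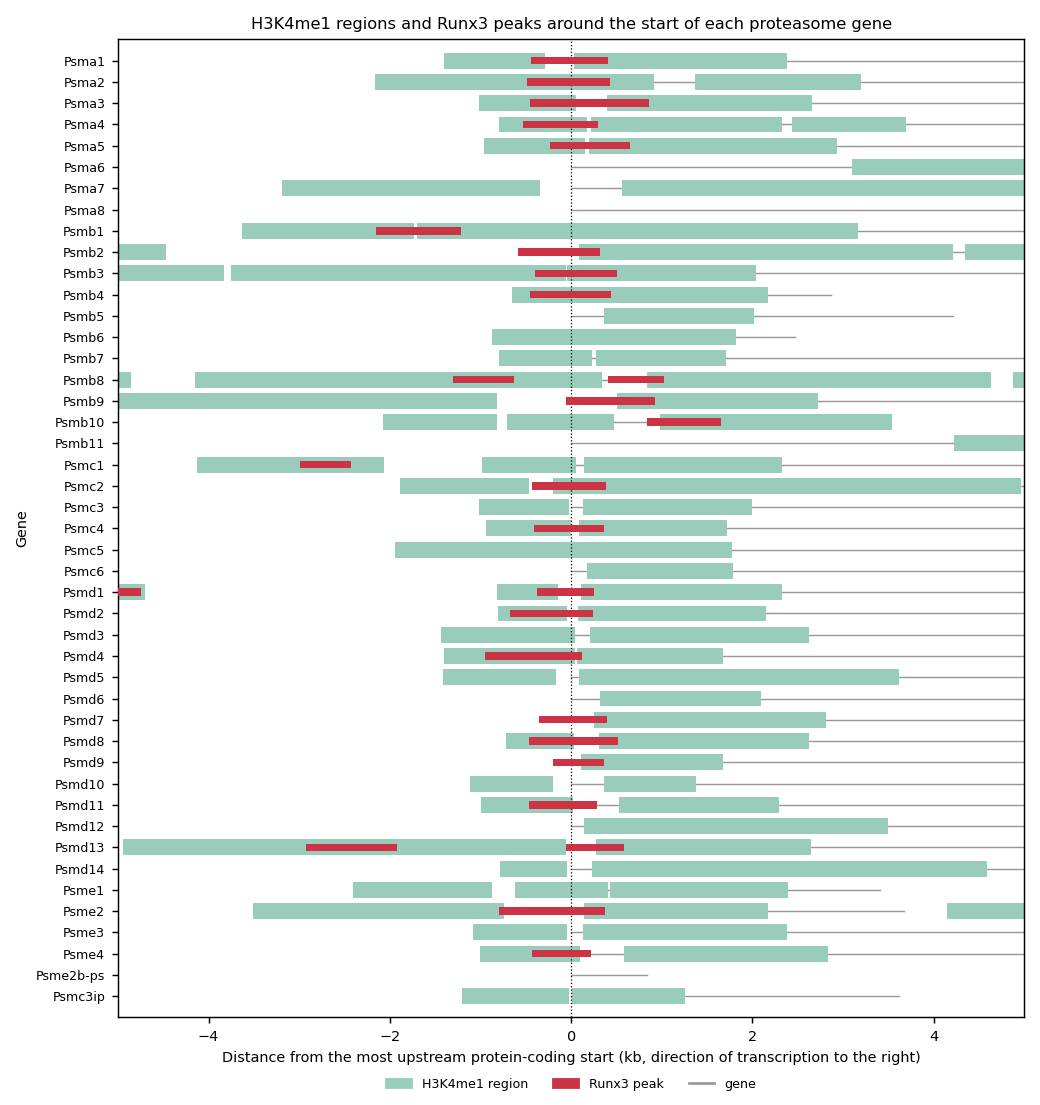
H3K4me1 regions (green) and Runx3 peaks (red) within 5 kb of the most upstream protein-coding start of each gene, drawn in the direction of transcription, with distance in kb. Most red bars cross the start, where the green regions often break, as at Psma1, Psmd1 and Psme2.

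The RUNX consensus was present in 35 of the 37 peaks (94.6%), beside 93.3% of all Runx3 peaks. At starts it was in 22 of 24 (91.7%), beside 91.6% of all Runx3 peaks at protein-coding starts, so that the proteasome peaks held it about as often as others. The peaks without it were the Psma2 start peak and the Psmc4 peak. Within the central 200 bp it was found in 22 of 37 (59.5%), beside 69.1% of all peaks. Among the start peaks, TGTGGT was in 37.5% beside 44.4% of all start peaks, TGTGGC in 41.7% beside 48.1%, TGCGGT in 45.8% beside 36.8%, and TGCGGC in 33.3% beside 49.5%. Examples close to the midpoint of a start peak are Psma6 (chr12:56499682-56499711, minus strand, 1 bp), Psma3 (chr12:72075802-72075831, plus strand, 5 bp) and Psmd8 (chr7:29965653-29965682, minus strand, 0 bp). In these 3 lines the capitals again mark the consensus.
Psma6 start peak: gcgcgcccggccTGCGGTccgcgggcttcc
Psma3 start peak: aggaagcccggcTGCGGCtcggagggccgc
Psmd8 start peak: cagaggcggagcTGCGGCatgttcattaag

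Other motifs were searched on both strands of the same 24 start peaks, without regard to overlap between them. The ETS core CGGAAG was in 79.2% of them, beside 56.4% of all start peaks, and TGACNNNGC, the element of the proteasome gene activator NFE2L1 and its relatives, in 62.5% beside 35.2%. The NF-kB motif was in 25.0%, beside 25.1%. A pair of GAAA repeats spaced by 2 bases, the form of element that interferon regulatory factors bind, was in 10 of 24 (41.7%), beside 9.29% of all start peaks and 11.3% of all Runx3 peaks. These were at Psma3, Psma4, Psmb3, Psmb8, Psmb9, Psmd2, Psmd4, Psmd7, Psmd9 and Psme2. Start peaks of proteasome genes had a median width of 866 bp and all start peaks 843 bp, and their median GC contents were 57.4 and 58.2%. A match is a run of letters and no measure of binding by these factors.

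**Figure D5:**
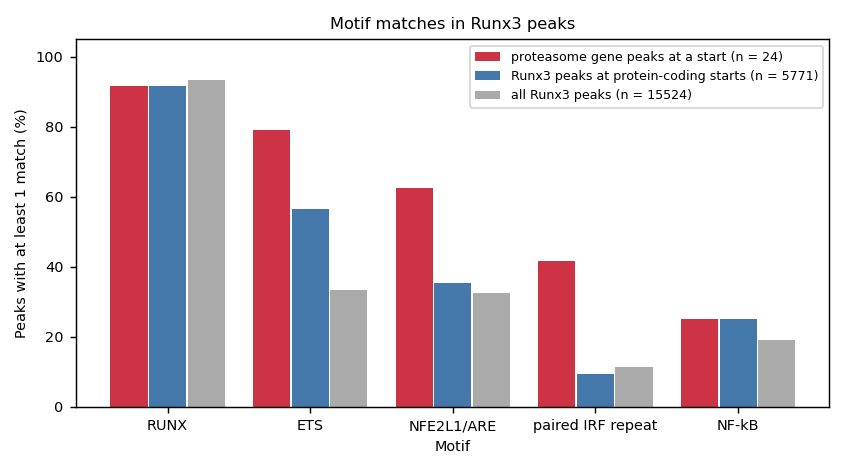
Share of peaks (%) with at least 1 match to each motif on either strand, for the 24 start peaks of proteasome genes (red), the 5771 Runx3 peaks at protein-coding starts (blue) and all 15524 Runx3 peaks (grey). The RUNX bars are level at 91.7, 91.6 and 93.3%, while the paired IRF repeat is at 41.7, 9.29 and 11.3%.

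The paired repeats are shown for 4 peaks, which were chosen after their sequences were seen because they were nearly alike. They are the start peaks of Psmb8 (chr17:34335280-34335309, minus strand), Psmb9 (chr17:34323930-34323959, plus strand) and Psme2 (chr14:56209764-56209793, minus strand) and the Psmb8 peak at the start of Tap2 (chr17:34341436-34341465, plus strand). The capitals mark the 2 GAAA repeats. The 4 windows shared a run of 15 bases, and over all 15524 Runx3 peaks this run occurred in 4, the ones printed. The run was read from these same 4 windows, so its presence in them was fixed beforehand. Its absence elsewhere is therefore no measure of how particular it is to these genes.
Psmb8 start peak: acaaggaagtGAAAgcGAAAgccacagtac
Psmb9 start peak: agtctagagtGAAAgcGAAAgcgctttgga
Psme2 start peak: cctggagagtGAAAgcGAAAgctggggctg
Psmb8 peak at Tap2: gcagtgaagtGAAAgcGAAAgccgcgggac
The printed repeat lay 89 bp from the midpoint of the Psmb8 start peak and 333 bp from that of Psmb9. It lay 389 bp from that of Psme2 and 2 bp from that of the peak at Tap2. The Psmb9 start peak and the peak at Tap2 each held another paired repeat, not printed, 370 and 159 bp from the midpoint. Psmb8, Psmb9, Psme2 and Tap2 all act in the production or transport of peptides for MHC class I. Their peaks were picked for likeness, so this shared role is not a result. The start peaks of Psma3, Psma4, Psmb3, Psmd2, Psmd4, Psmd7 and Psmd9 held a paired repeat too.

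In the promoter windows of 300 bases, ETS matches were in 53.3% of the proteasome genes beside 20.2% of all protein-coding genes. TGACNNNGC was in 15.6% beside 12.5%, the paired GAAA repeat in 11.1% beside 3.83% and the NF-kB motif in 8.89% beside 8.94%. Among protein-coding genes with a Runx3 peak at a start, ETS matches were in 37.8% and the paired repeat in 3.04%. Proteasome genes with a Runx3 peak at a start had ETS matches in 52.2% and those without in 54.5%. For the paired repeat these shares were 21.7 and 0%. The median GC content was 55.3% in the proteasome promoters and in all promoters. The median number of CpG was 19 in the proteasome promoters, 12 in all promoters and 22 in those of the protein-coding genes with a Runx3 peak at a start. CpG number therefore moved with the presence of a Runx3 peak over all genes, and its part in the counts of the proteasome genes was not tested.

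Other genes of the pathway were read in the same way. Of 37 listed symbols, 33 were found in the annotation, and Sem1 and Ecm29, among those not found, are other names of the listed Shfm1 and AI314180. Of the 33 genes, 27 (81.8%) had a Runx3 peak, in every case at a start, beside 39.8% of all protein-coding genes with a peak within 5 kb and 27.2% with one at a start. They were 4 of 5 assembly chaperones (Pomp, Psmg1, Psmg3 and Psmg4), 7 of 9 other components and regulators, 3 of 4 genes of transcriptional control, 8 of 9 genes of class I presentation and 5 of 6 genes of ubiquitin supply. Nfe2l1, which encodes the activator of proteasome genes, had 1 peak, and Ngly1, whose enzyme processes that activator, had 2, whereas Ddi2, which encodes the protease that cleaves it, had 0. Tap1 and Tap2 shared peaks with Psmb8 and Psmb9 and are not independent of them. The genes without a peak were Psmg2, AI314180, Usp14, Ddi2, Erap1 and Uba1, and each had H3K4me1 within its window.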

How the data were processed

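Chromatin of resting splenic NKC was immunoprecipitated with antibody to Runx3, antibody to H3K4me1 or NIS, 1 sample each. Per the labels, the authors aligned 40 bp reads to mm9 with ELAND (CASAVA 1.7). By the methods, reads of repeat experiments were joined and regions called with MACS against NIS, but the labels speak of a first experiment and the coordinates do not settle which reads were used. The deposited values are region coordinates, with no score, p-value or read number. How deep a gene was read cannot be told from them, and a weakly bound region under the caller's threshold is not listed.

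Coordinates were converted to 1-based positions on mm9. Gene records of GENCODE M1 with the same symbol that overlapped on one strand were joined, giving 22254 protein-coding genes. Peaks and regions were counted with Python 3.11.15 and numpy 2.4.6 where at least 1 bp was shared with the gene and 5 kb on either side. Sequences were read from the mm9 genome. The counting was tested on simulated intervals. Medians and shares stand beside the same over all protein-coding genes or all Runx3 peaks, and no p-value was computed.

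The members, gene lists, motifs and alternatives were chosen with earlier results of these data known. The naming rule took the immunoproteasome genes and their counterparts, the activators, tissue-specific forms, the genes with most peaks, largest H3K4me1 cover, 0 peaks or 0 regions, peaks without the RUNX consensus, and the widest and narrowest peak. Alternatives changed the window, the overlap rule, the assignment of peaks, the minimum width and the member list. Protein sequences were not used here, and 1 marker gene of the planned list is not reported here.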

Additional observations from a re-analysis of the deposited data

How the results depend on the processing

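Of 50 alternatives over 9 results, 42 stayed within 1.5 times the count or within the counting interval (95%, Wilson) of the share, and 8 did not. Keeping only regions wider than the median of their list left 19 proteasome genes with a Runx3 peak (42.2%, beside 25.4% of all genes). It left 19 peaks, 1 peak at the immunoproteasome genes (Psmb9) and 16 pathway genes with a peak. This setting leaves fewer regions to count. The 3 Psmb8 peaks (674, 614 and 692 bp) and the Psmb10 peak (810 bp) were narrower than the median of 825 bp. With the gene body alone, 3 peaks at the immunoproteasome genes were counted, and 26 proteasome genes had a peak beside 33.6% of all genes. The share of proteasome peaks in H3K4me1 was 100% by any shared base and 27.0% when the whole peak had to lie inside a region. The RUNX consensus was in 59.5% within the central 200 bp. In every setting tried the share of proteasome genes with a Runx3 peak was above that of all protein-coding genes. The 6 alternatives without Psmd10, the gene on chromosome X, or without Psme2b-ps were added after the data were seen and left 30 genes with a peak. No paired analysis was possible because each antibody had 1 sample and 1 list. Intervals cover counting error only, and signal strength, replicate spread and the NIS background at single genes could not be read from coordinates.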
